A study of Mus musculus with 24 samples.

Results

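The genes that make cholesterol and fatty acids were followed across 24 two-colour microarrays of mouse T helper cells. The set was fixed by name as 32 genes, and each gene was read from its brightest probe, the probe with the highest mean log2 intensity over both dyes and all 24 arrays. All 32 were found among the 20031 genes that the array's probes could be named to. They comprise 7 genes of the mevalonate pathway (Acat2, Hmgcs1, Mvk, Pmvk, Mvd, Idi1 and Fdps), 11 genes that carry farnesyl diphosphate on to cholesterol (Fdft1, Sqle, Lss, Cyp51, Tm7sf2, Msmo1, Nsdhl, Hsd17b7, Ebp, Sc5d and Dhcr7), 6 genes that control the supply of sterol (Srebf1, Srebf2, Scap, Insig1, Insig2 and Stard4) and 8 genes of fatty acid synthesis and desaturation (Acly, Acaca, Fasn, Elovl6, Scd1, Scd2, Fads1 and Fads2).

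The cells were Th1 and Th2 cells differentiated in vitro from female C57BL/6 mice, and each was either left unstimulated or reactivated. They received DMSO as the control, JQ1 at 50 or 500 nM, or Flavopiridol at 1 or 10 µM, for 6 hr, and Th1 cells were also sampled after 24 hr with DMSO or 500 nM JQ1. JQ1 displaces bromodomain proteins of the BET family from acetylated chromatin, and Flavopiridol inhibits cyclin-dependent kinases including Cdk9, the kinase of the elongation factor P-TEFb. The Th2 DMSO arrays are 24 hr by their titles and 6 hr by their source names, so their time is unclear. Sample RNA was labelled with Cy3, and RNA of naive CD4+CD62L+CD25-CD44lo T cells from lymph nodes and spleens was labelled with Cy5 as the common reference on every array, with no dye swap. There was 1 biological replicate of each condition. Tests therefore used cell type, state and time as the repeated contexts, or treatment and state for Th1 against Th2 and for time. The p-values measure only the spread between those contexts. All levels below are log2 ratios of the sample to naive T cells, and all changes are differences between such ratios.

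Cholesterol is built from acetyl-CoA through mevalonate, isoprenoid diphosphates, squalene and lanosterol, while fatty acids are built from acetyl-CoA and malonyl-CoA and then elongated and desaturated. Both programmes are driven by the SREBP transcription factors, the products of Srebf1 and Srebf2. When sterol is low, the escort protein Scap carries SREBP from the endoplasmic reticulum to the Golgi for cleavage, and the Insig proteins hold it back when sterol is high. Activated T cells are known to switch on lipid synthesis to supply membrane for growth.

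Promoter sequence was taken from RefSeq (GRCm38.p6) as windows of 300 bases, from 250 before to 50 after each transcription start. There were 33 such windows, covering 25 of the 32 genes. Fdps, Fdft1, Sqle, Stard4, Scd1, Scd2 and Fads1 had no window and were not searched. Both strands were searched for letters that resemble sites of SREBP and of the factors that act beside it. The sterol response letters TCACNCCAC were found in 408 of 32851 promoters (1.24%). Among the 25 genes with a window they were found only in Hmgcs1, where the match begins at position -137 from the start. The shorter form CACCCCAC, which overlaps that match in Hmgcs1, was in 2.87% of all promoters and in 2 of the 33 windows, those of Acat2 and Hmgcs1. CCAAT, the letters of the NF-Y site, was in 37.4% of all promoters, in 37.7% of the 13530 promoters of expressed genes and in 21 of the 33 windows (63.6%), belonging to 20 of 25 genes. GGGCGG, the Sp1 letters, was in 59.0% of promoters of expressed genes and 75.8% of these windows, and the E-box CACGTG was in 9.68% and 18.2%. These matches are a description of the letters, and no binding was measured.

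The promoters of 4 genes are printed to set side by side the single window with the sterol response letters and genes of the same pathway that moved in opposite directions on reactivation. Hmgcs1 (chr13:119690101-119690400, plus strand) encodes HMG-CoA synthase and was not called on reactivation, Idi1 (chr13:8885356-8885655, plus strand) encodes isopentenyl diphosphate isomerase and rose, Mvk (chr5:114444019-114444318, plus strand) encodes mevalonate kinase and fell, and Hsd17b7 (chr1:169969156-169969455, minus strand) encodes a sterol reductase and rose. Each is written 5′ to 3′ with capitals at TCACNCCAC, CACCCCAC and CCAAT on either strand (CCAAT reads ATTGG on the other).
Hmgcs1: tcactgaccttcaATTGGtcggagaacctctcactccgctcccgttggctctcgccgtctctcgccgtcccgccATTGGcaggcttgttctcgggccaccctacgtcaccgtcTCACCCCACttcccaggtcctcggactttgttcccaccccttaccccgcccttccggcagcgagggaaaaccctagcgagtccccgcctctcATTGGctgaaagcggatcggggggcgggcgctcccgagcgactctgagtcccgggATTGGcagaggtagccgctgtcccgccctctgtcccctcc
Idi1: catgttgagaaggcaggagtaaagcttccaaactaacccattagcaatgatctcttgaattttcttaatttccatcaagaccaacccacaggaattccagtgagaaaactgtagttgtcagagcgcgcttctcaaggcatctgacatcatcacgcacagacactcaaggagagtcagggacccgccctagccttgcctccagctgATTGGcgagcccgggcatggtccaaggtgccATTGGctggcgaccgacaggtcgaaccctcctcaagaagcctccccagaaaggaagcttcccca
Mvk: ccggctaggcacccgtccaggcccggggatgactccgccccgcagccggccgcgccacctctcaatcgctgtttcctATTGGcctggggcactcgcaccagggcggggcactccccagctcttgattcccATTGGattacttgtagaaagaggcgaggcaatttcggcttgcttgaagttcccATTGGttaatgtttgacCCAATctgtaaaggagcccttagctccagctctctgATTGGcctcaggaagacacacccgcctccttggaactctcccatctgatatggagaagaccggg
Hsd17b7: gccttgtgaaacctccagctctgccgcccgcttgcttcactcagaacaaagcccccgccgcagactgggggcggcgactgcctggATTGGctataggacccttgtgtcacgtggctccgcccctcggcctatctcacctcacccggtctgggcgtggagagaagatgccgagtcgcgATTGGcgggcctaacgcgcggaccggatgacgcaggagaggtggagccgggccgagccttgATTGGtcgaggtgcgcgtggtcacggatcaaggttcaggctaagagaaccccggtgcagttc
The windows held 4 matches to CCAAT in Hmgcs1, 2 in Idi1, 5 in Mvk and 3 in Hsd17b7. CCAAT did not separate the directions: it was present in 7 of 9 genes with a window that rose on reactivation, in 6 of 7 that fell and in 7 of 9 that did neither.

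Arrays differed in ways that touch these results. The share of probes with Cy3 signal well above background was 48.8 to 52% with DMSO, 43.8 to 50.5% with 500 nM JQ1 and 35.4 to 41.5% with Flavopiridol. Every unstimulated and reactivated pair lay on 1 slide, but no Flavopiridol array shared a slide with its DMSO control, so slide and Flavopiridol cannot be told apart. The Th2 arrays with JQ1 also lay on another slide than their DMSO controls and than the Th1 arrays they are set against. Reactivation was visible in 8 of 8 activation genes, whose median rise was 4.32. The lineage genes followed the labels, with 3 of 3 Th1 markers higher and 4 of 4 Th2 markers lower in Th1 than in Th2 cells, but the reactivated Th2 arrays with DMSO and with 50 nM JQ1 carried all 3 Th1 markers well above the naive level, and that with 500 nM JQ1 carried Ifng. Tbx21 stood at -0.02 on the unstimulated Th2 DMSO array and 4.64 on the reactivated one, Cxcr3 at -0.06 and 4.11, and Ifng at 0.65 and 6.2. On the reactivated Th2 array with 50 nM JQ1 they stood at 3.34, 2.6 and 5.7, and with 500 nM at 0.94, -0.4 and 4.79. Without the arrays paired with the Th2 DMSO arrays, 11 of the 32 genes were higher and 4 lower for Flavopiridol at 10 µM. Of all genes 1321 were higher and 2759 lower. For JQ1 at 500 nM the numbers were 8 and 8, against 1039 and 1847 of all genes. For unstimulated against naive cells they were 20 and 2, against 3932 and 2916. The 4 B cell markers had a mean log2 ratio of 2.44 to 2.51 on the Th2 DMSO arrays and 0.92 to 1.16 on the Th1 DMSO arrays, and their part in the results was not tested. All 32 genes were well above background in Cy3 on all 24 arrays except Srebf1 (23 arrays), Scd1 (21) and Fads2 (16). In the naive channel Scd1 was well above background on 7 arrays and Fads2 on 1, so their distance from naive cells is not well measured.

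**Figure D1:**
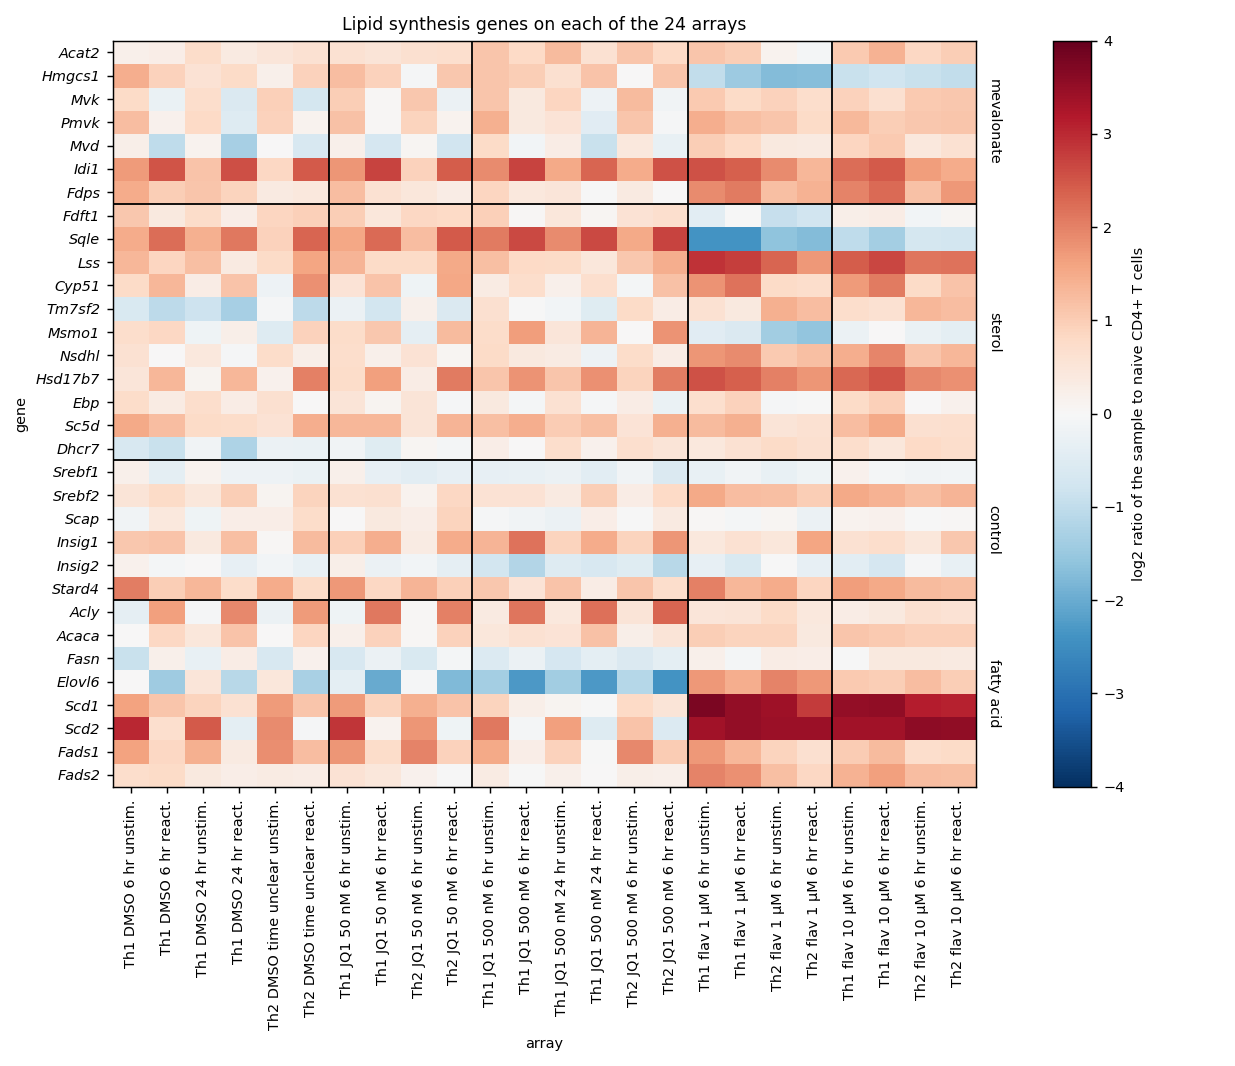
Heat map of the log2 ratio of sample to naive T cells (colour) for the 32 genes (rows, grouped by role) on each of the 24 arrays (columns, DMSO, then JQ1, then Flavopiridol). On the 8 Flavopiridol arrays Sqle and Hmgcs1 are below 0 and Scd2 is at 3.35 or higher, while the naive channel of Scd1 and Fads2 was mostly not well above background.

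Unstimulated effector cells differed from naive T cells in 16 of these genes, of which 15 were higher. Of 31 genes tested 1 was lower, where 53.5% of all genes tested were called by limma at an adjusted p below 0.05, 31.1% higher and 22.3% lower. The higher genes were 5 of 7 in the mevalonate group, 6 of 11 in the sterol group, Stard4 of the control group and 3 of 7 in the fatty acid group. The median over these genes was 0.51 against 0.08 over all genes. On median centring the median of all genes was -0.37, and 1981 of all genes were called higher and 5681 lower. There 8 of the 31 genes were higher (Scd2, Fads1, Stard4, Scd1, Sqle, Idi1, Lss and Pmvk) and 8 lower. The higher genes include Scd1 on either scale, whose naive channel was mostly not well above background. The reference counts as 1 control sample, so the test leaves out the spread of naive cells, and a bias between dyes cannot be removed without a swap. Markers of cell types differed as well, with 3 of 3 B cell markers tested higher (median 1.84) and 3 of 3 T cell markers (median -0.99), 1 of 2 myeloid markers and the 1 CD8 (-1.1) and 1 erythroid marker (-0.83) tested lower, and their part was not tested.

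Scd2, a stearoyl-CoA desaturase that makes monounsaturated fatty acids, stood at 3.01 and 2.44 on the Th1 arrays at 6 and 24 hr and at 1.89 on the Th2 array, a mean of 2.45 (SE 0.22, limma adjusted p = 0.000935). Fads1, a desaturase of polyunsaturated fatty acids, stood at 1.62, 1.41 and 1.86 in the same order, a mean of 1.63 (SE 0.13, limma adjusted p = 0.000641). All 3 arrays lay above the naive level for both desaturases. Stard4, which carries cholesterol between membranes, averaged 1.61 (SE 0.17, limma adjusted p = 0.00146). Sqle, squalene epoxidase, an oxygen-dependent and rate-limiting step, stood at 1.49, 1.41 and 0.93 and averaged 1.28 (SE 0.15, limma adjusted p = 0.002). Idi1 averaged 1.23 (SE 0.19, adjusted p = 0.00442), Lss, lanosterol synthase, 1.09 (SE 0.15, adjusted p = 0.00319), Pmvk, phosphomevalonate kinase, 0.98 (SE 0.13, adjusted p = 0.00295) and Fdps, farnesyl diphosphate synthase, 0.98 (SE 0.23, adjusted p = 0.0175).

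Fasn, the fatty acid synthase, was the single gene below naive cells, at -0.88, -0.3 and -0.63 on the same arrays and -0.6 on average (SE 0.15, limma adjusted p = 0.0201). Without the Th1 array at 6 hr it was -0.46 and not called (adjusted p = 0.1). The naive comparison gave no call for the regulators, with Srebf1 at 0.05 (SE 0.13), Srebf2 at 0.36 (SE 0.13, adjusted p = 0.0647) and Insig1 at 0.51 (SE 0.21, adjusted p = 0.0921). Hmgcs1 averaged 0.74 (SE 0.25, adjusted p = 0.0525) and spread widely, from 1.44 on the Th1 array at 6 hr to 0.19 on the Th2 array. For Scd1 the naive channel was above background on only 7 of 24 arrays, so its ratio to naive cells is not given.

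Reactivation under DMSO moved genes of the same pathway in both directions. Of the 32 genes, 10 rose and 11 fell, where 51% of all genes were called by limma at an adjusted p below 0.05, 21.9% higher and 29% lower. The rise was found in 1 of 7 mevalonate genes, 3 of 11 sterol genes, 3 of 6 control genes and 3 of 8 fatty acid genes, and the fall in 3, 3, 1 and 4 of the same groups. The median change over the 32 genes was -0.19 against -0.05 over all genes. Without the 2 Th2 arrays, whose time is unclear, 8 rose and 13 fell, where 2299 and 3123 of all genes did. Of the 21 calls 17 were kept. On spike-in centring 11 rose and 7 fell, where 3701 and 2107 of all genes did. All 21 genes kept their direction under all 4 scalings. Of the markers of cell types 3 of 3 for T cells were lower (median -0.88) and of 4 for B cells 1 was higher and 1 lower, and their part was not tested.

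At the head of fatty acid synthesis 3 successive enzymes rose. Acly, ATP citrate lyase, which makes cytosolic acetyl-CoA from citrate, went from -0.36 to 1.65 in Th1 cells at 6 hr, from -0.04 to 1.92 at 24 hr and from -0.25 to 1.69 in Th2 cells. Reactivated and unstimulated arrays did not overlap for Acly, and the rise was 1.96 (SE 0.12, limma adjusted p = 0.000216, 3 of 3 pairs). Fasn went from -0.88 to 0.2, from -0.3 to 0.29 and from -0.63 to 0.17, again without overlap, and rose by 0.82 (SE 0.14, limma adjusted p = 0.00414). Acaca, acetyl-CoA carboxylase, which makes malonyl-CoA, rose by 0.79 (SE 0.12, limma adjusted p = 0.00265).

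Of the 5 members that lengthen or desaturate the finished chain, 4 fell. Scd2 went from 3.01 to 0.66 in Th1 cells at 6 hr, from 2.44 to -0.39 at 24 hr and from 1.89 to -0.04 in Th2 cells, a fall of 2.37 on the log2 scale (SE 0.19, limma adjusted p = 0.000327). Elovl6, the elongase that makes stearate from palmitate, went from 0.02 to -1.43, from 0.49 to -1.12 and from 0.45 to -1.3, a fall of 1.6 on the log2 scale (SE 0.13, limma adjusted p = 0.000332). Neither gene's unstimulated and reactivated arrays overlapped. Fads1 changed by -0.82 (SE 0.14, limma adjusted p = 0.00349) and Scd1 by -0.44. Fads2 stood at -0.02 and was not called (SE 0.12, limma adjusted p = 0.908). Outside the set, the elongase Elovl1 rose by 0.57 (SE 0.13, limma adjusted p = 0.0105).

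In the mevalonate pathway 3 consecutive enzymes fell and the enzyme after them rose. Mvk went from 0.77 to -0.27, from 0.69 to -0.57 and from 0.94 to -0.71, a fall of 1.31 on the log2 scale (SE 0.16, limma adjusted p = 0.00101). Pmvk, the kinase after it, changed by -1.05 (SE 0.15, limma adjusted p = 0.0018) and Mvd, the decarboxylase that yields isopentenyl diphosphate, went from 0.22 to -1.02, from 0.14 to -1.34 and from 0.01 to -0.65, a change of -1.13 (SE 0.18, limma adjusted p = 0.00302). Idi1, which isomerizes that product, went the other way, from 1.71 to 2.52, from 1.15 to 2.57 and from 0.83 to 2.44, a rise of 1.28 (SE 0.18, limma adjusted p = 0.00186). The groups did not overlap for these genes. Hmgcs1 did overlap, going from 1.44 to 0.92 and from 0.59 to 0.76 in Th1 cells and from 0.19 to 0.93 in Th2 cells, and its change of 0.13 was not called (SE 0.24, limma adjusted p = 0.681).

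Among the sterol genes Hsd17b7 went from 0.48 to 1.33, from 0.12 to 1.34 and from 0.17 to 2.03 and rose by 1.31 (SE 0.2, limma adjusted p = 0.00272). Cyp51, the lanosterol demethylase, went from 0.76 to 1.33, from 0.29 to 1.15 and from -0.19 to 1.82 and rose by 1.15 (SE 0.27, limma adjusted p = 0.0138). Sqle went from 1.49 to 2.22, from 1.41 to 2.11 and from 0.93 to 2.33 and rose by 0.94 (SE 0.17, limma adjusted p = 0.00515). For each of the 3 genes the Th2 pair rose most, and reactivated arrays lay above all unstimulated ones for Cyp51, Sqle and Hsd17b7. Tm7sf2, a sterol reductase of the nuclear envelope and endoplasmic reticulum, Nsdhl, a sterol dehydrogenase, and Ebp, a sterol isomerase, fell by 0.63, 0.53 and 0.48 on the log2 scale.

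Of the control genes, Insig1 rose by 0.7 (SE 0.22, limma adjusted p = 0.0388), with unstimulated arrays at 1.08, 0.39 and 0.06 and reactivated arrays at 1.15, 1.21 and 1.28. Its Th1 pair at 6 hr differed least, and the call was lost on leaving out any of the 4 arrays other than that pair (0.44 to 1.02 over all 6 arrays left out in turn). Srebf2 rose by 0.52 (SE 0.14, limma adjusted p = 0.0242) and lost its call without any of the same 4 arrays (0.39 to 0.65), and Scap rose by 0.5 (SE 0.12, limma adjusted p = 0.0143). Srebf1 stood at 0.21, 0.14 and -0.19 unstimulated and at -0.39, -0.21 and -0.26 reactivated, a difference of -0.34 that was not called (SE 0.15, limma adjusted p = 0.1). Stard4 fell by 0.78 on its brightest probe, but its other probe gave 0.16, so the direction for Stard4 rests on 1 probe.

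**Figure D2:**
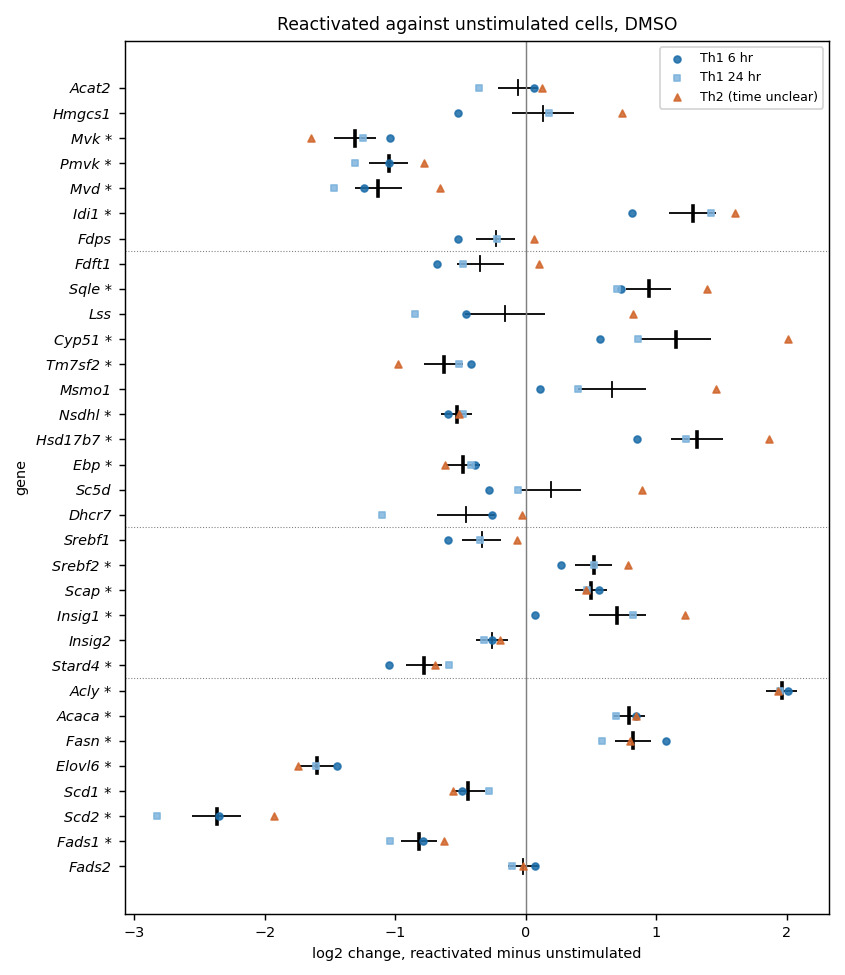
Log2 change on reactivation under DMSO (horizontal axis) for each of the 32 genes (rows, by role), with a point for each of the 3 pairs of arrays and a bar with its SE from limma. Stars mark the 21 genes at an adjusted p below 0.05, and Acly and Scd2 lie at the ends, at 1.96 and -2.37.

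Other genes of sterol and fatty acid handling, from lists also chosen with results known, moved as follows on reactivation. Of 17 further SREBP targets tested, 5 rose and 5 fell. Tmem97, a sterol-regulated membrane protein, rose by 1.45 (SE 0.23, limma adjusted p = 0.00273), while Acss2, which makes acetyl-CoA from acetate, fell by 2.31 on the log2 scale (SE 0.25, limma adjusted p = 0.000743) and Lpin1, a phosphatidate phosphatase, fell by 1.9 (SE 0.18, limma adjusted p = 0.000487). Idi2 gave 4.72, but it was above background in Cy3 only on the 3 reactivated arrays and not on the 3 unstimulated ones, so its value is measured on 1 side only.

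Genes of fatty acid burning were mostly lower after reactivation, while those of sterol export were mixed, where 29% of all genes were lower. Of 13 genes of sterol export, storage and LXR response, 1 rose, 6 fell and 6 were not called, with a median of -0.1 against -0.05 over all genes. The largest change was of Abcg1, a cholesterol exporter, which fell by 2.79 on the log2 scale (SE 0.16, limma adjusted p = 0.000177), while Abca1, the other exporter of the list, stood at 0.4 and was not called (SE 0.16, limma adjusted p = 0.0816). Of 17 genes of fatty acid oxidation, 13 fell and 1 rose, with a median of -0.73 against -0.05 over all genes. Among them Acadl, a long-chain acyl-CoA dehydrogenase, fell by 1.56 on the log2 scale and Hadh, a hydroxyacyl-CoA dehydrogenase, fell by 1.49. Cpt1a, which commits fatty acids to mitochondrial import, fell by 1.32 (SE 0.18, limma adjusted p = 0.0015), and Slc25a20, the carnitine carrier, rose by 0.68.

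The same reactivation difference was available in 12 pairs of arrays, 3 with DMSO, 5 with JQ1 and 4 with Flavopiridol. Acly differed by 1.93 to 2.01 in the DMSO pairs, by 1.78 to 2.29 in the JQ1 pairs and by -0.35 to 0.08 in the Flavopiridol pairs. Scd2 differed by -2.83 to -1.93 with DMSO, by -2.71 to -1.68 with JQ1 and by -0.06 to 0.15 with Flavopiridol. For both genes the Flavopiridol pairs lay apart from all others and near 0. Elovl6 differed by -1.75 to -1.45, by -1.72 to -0.92 and by -0.27 to -0.05, and Mvk by -1.65 to -1.04, by -1.4 to -0.73 and by -0.27 to 0.04, in the same order. At least 2-fold differences were seen in 8, 10 and 10 of the 32 genes in the DMSO pairs. They were seen in 4 to 12 genes in the JQ1 pairs, and in 0, 0, 1 and 0 in the Flavopiridol pairs. All genes were not counted at this cut, so whether these counts are particular to the 32 was not tested. The all-gene median of each pair lay between -0.05 and 0 because loess centres each array.

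**Figure D3:**
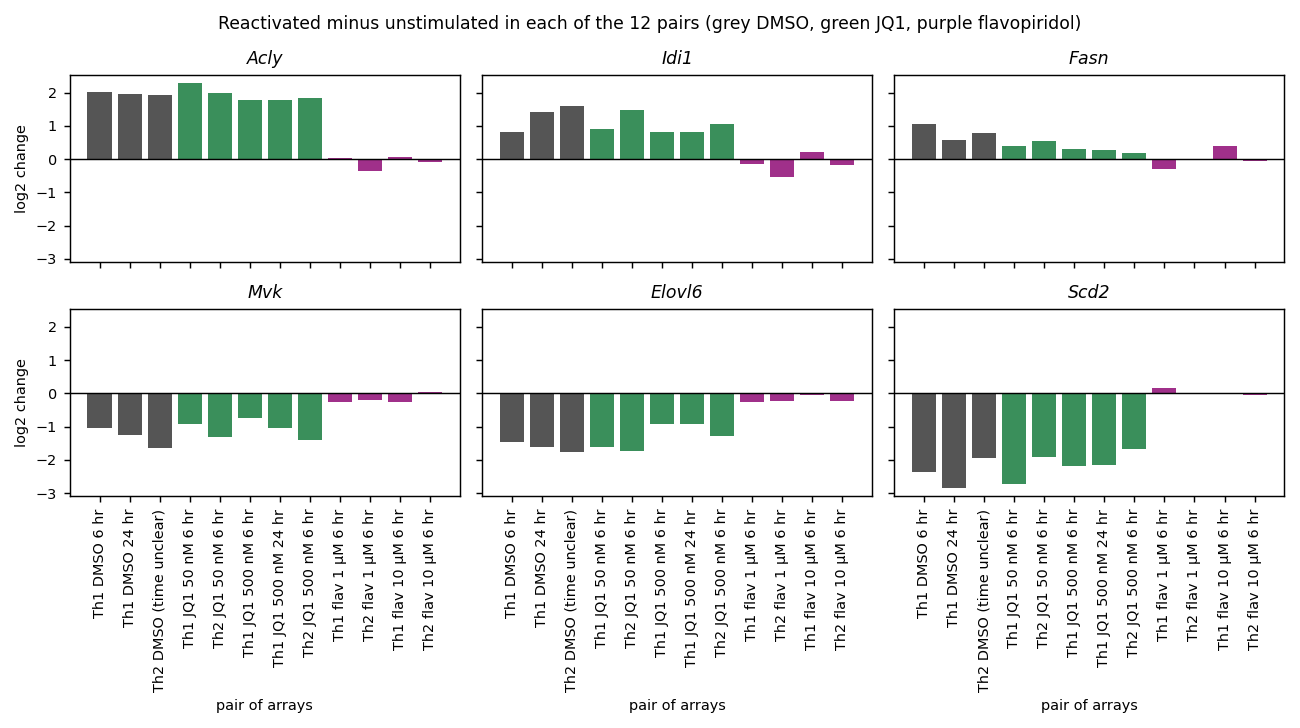
Reactivated minus unstimulated level in log2 units (bars from 0) for Acly, Idi1, Fasn, Mvk, Elovl6 and Scd2 in each of the 12 pairs of arrays, coloured by DMSO, JQ1 or Flavopiridol; each bar is 1 array minus 1 array, so there is no error bar. For Acly the 8 DMSO and JQ1 pairs lie between 1.78 and 2.29 and the 4 Flavopiridol pairs between -0.35 and 0.08.

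The question of whether the drugs acted differently on reactivated and unstimulated cells was tested as a difference of differences. With 10 µM Flavopiridol, 4 genes had a higher effect in reactivated cells and 1 a lower one, where 15.8% of all genes were called, 8.89% higher and 6.95% lower. Acly was changed by 0.67 and 0.89 in unstimulated Th1 and Th2 cells and by -1.26 and -1.12 in reactivated ones, a difference of -1.97 (SE 0.22, limma adjusted p = 0.00359). Elovl6 was changed by 1.02 and 0.78 in unstimulated and by 2.42 and 2.29 in reactivated cells, a difference of 1.45 (SE 0.22, limma adjusted p = 0.00782), and leaving out the unstimulated Th2 array with 10 µM took it to an adjusted p of 0.0645. Scd2 gave 2.12 (SE 0.49, limma adjusted p = 0.029), Mvk 1.23 (SE 0.32, adjusted p = 0.0403) and Stard4 0.76 (SE 0.21, adjusted p = 0.0469), and these calls rest on single arrays. The call of Scd2 was lost without the reactivated Th2 DMSO array or any of the 4 arrays with 10 µM (1.49 to 2.75), that of Mvk without any array but the reactivated Th1 DMSO and reactivated Th1 10 µM arrays (0.87 to 1.58), and that of Stard4 without any of the 12 (0.69 to 0.84). All 5 kept their direction under all 4 scalings, but of the 5 only Scd2 was called under any of the 3 scalings other than loess.

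With 500 nM JQ1, the effect was lower in reactivated cells for Fasn, by -0.68 (SE 0.16, limma adjusted p = 0.0296), and for Acaca, by -0.63 (SE 0.14, limma adjusted p = 0.0263), 2 of 32 genes where 10.1% of all genes were called, 4.49% higher and 5.62% lower. On both spike-in scalings 28 of the 32 were called lower, where the median of all genes was -1.04 and -1.26. Of all genes 10262 and 11083 were called lower on these scalings, with 12918 tested in the main fit. The calls of Fasn and Acaca were lost without any of the 4 DMSO arrays or the unstimulated arrays at 50 nM. They were also lost without the unstimulated Th1 or the reactivated Th2 array at 500 nM. Values ran from -0.82 to -0.55 for Fasn and from -0.73 to -0.52 for Acaca. Neither was called with the Cy3 channel alone, which called 2 other members higher and 0 lower, or with the authors' ratios, which called 1 other member lower. No gene of the 32 differed between Th1 and Th2 cells in its response to either drug by limma at an adjusted p below 0.05, with 2 genes at an unadjusted p below 0.05 for each drug. For Flavopiridol the spike-in centring called 2 members and the spike-in shift 7, all with the change higher in Th1 cells. On these scalings the median of all genes was 0.61 and 0.9, with 1446 and 2036 of all genes called higher and 7 and 8 lower. Among all genes 0.0161% were called for Flavopiridol and 0% for JQ1, with 1610 and 907 genes at an unadjusted p below 0.05.

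JQ1 at 500 nM changed the members in both directions in about equal number. Relative to the bulk of genes, 11 rose and 11 fell, where 47.6% of all genes were called by limma at an adjusted p below 0.05, 17.7% higher and 29.9% lower, and the median change was -0.02 against -0.07 over all genes. The risers were 4 mevalonate genes, 5 sterol genes, Insig1 and Acly, and the fallers included 4 of the 8 fatty acid genes and 3 of the 6 control genes. At 50 nM, 0 of the 32 were called, with changes from -0.49 for Elovl6 to 0.36 for Tm7sf2, against a background where 0.341% of all genes were called. Over the 4 Th1 pairs of 6 and 24 hr, whose arrays shared a slide, 10 genes were higher and 9 lower at 500 nM. In that fit 1646 of all genes were higher and 2642 lower. Markers of cell types moved with 500 nM JQ1 as well, with 3 of 3 T cell markers (median -0.31), 2 of 2 CD8 markers (median -0.43) and 3 of 4 B cell markers (median -1.01) lower, 1 of 3 myeloid markers tested higher and the 1 erythroid marker tested higher by 0.37. Their part in the results was not tested.

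Tm7sf2 moved most among the risers. Its levels in unstimulated and reactivated Th1 and unstimulated and reactivated Th2 cells were -0.62, -1.04, -0.06 and -1.04 with DMSO, -0.24, -0.72, 0.19 and -0.57 at 50 nM and 0.64, -0.01, 0.77 and 0.31 at 500 nM. The level thus stood in the order of the dose in each of the 4 contexts, and the DMSO and 500 nM arrays did not overlap. The rise at 500 nM was 1.12 (SE 0.09, limma adjusted p = 7.86e-06). Dhcr7, the reductase of the last step to cholesterol, went from -0.65, -0.9, -0.23 and -0.27 with DMSO to 0.28, 0.03, 0.66 and 0.5 at 500 nM, without overlap, a rise of 0.88 (SE 0.07, limma adjusted p = 1.02e-05). Insig1 rose by 0.65 (SE 0.11, limma adjusted p = 0.000943), Acly by 0.65 (SE 0.09, limma adjusted p = 0.000176) and Sqle by 0.48 (SE 0.08, limma adjusted p = 0.000553). Of the 11 risers only Tm7sf2, Dhcr7, Insig1 and Acly kept a rise under all 4 scalings. On spike-in centring 0 of the 32 were called higher and 13 lower. Of all genes 110 were called higher and 5253 lower there, around a median of -0.54, with 12918 tested in the main fit.

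Elovl6 moved most among the fallers. Its levels in the same 4 contexts were 0.02, -1.43, 0.45 and -1.3 with DMSO, -0.4, -2.01, -0.04 and -1.76 at 50 nM and -1.37, -2.3, -1.13 and -2.39 at 500 nM. Here too the levels followed the dose in each context, and the fall at 500 nM was 1.23 on the log2 scale (SE 0.12, limma adjusted p = 2.68e-05). Insig2, the other Insig protein, fell while Insig1 rose, going from 0.17, -0.08, -0.11 and -0.31 with DMSO to -0.73, -1.17, -0.49 and -1.1, by 0.79 on the log2 scale (SE 0.11, limma adjusted p = 0.000225). Scd2 fell by 0.72 on the log2 scale (SE 0.1, limma adjusted p = 0.000183). Scd1 was called lower as well, but it was not well above background on the reactivated Th1 array at 500 nM, so the size of its fall is not given. All 11 fallers kept their direction under all 4 scalings and 10 of them were called in each. The difference between 500 and 50 nM was called for 14 genes, 8 higher and 6 lower, where 10.7% and 20.6% of all genes were. Only 1 of the 8, Tm7sf2, stayed higher under all 4 scalings. On the spike-in shift 0 were called higher and 7 lower, where 7 and 3496 of all genes were.

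Some of the regulators and first steps gave no call with JQ1. Hmgcs1 (-0.07), Srebf1 (-0.17), Srebf2 (0) and Fasn (-0.16) were not called at 500 nM. Of the 17 further SREBP targets, 5 rose and 4 fell, with Acss2 up by 1.18 (SE 0.12, limma adjusted p = 2.62e-05). Of the 13 genes of sterol export, storage and LXR response, 4 rose and 5 fell. Abcg1 rose by 1.66 (SE 0.26, limma adjusted p = 0.000432) and Mylip, a sterol-responsive ubiquitin ligase, by 1.57 (SE 0.11, limma adjusted p = 4.86e-06), while Abca1 fell by 0.32 on the log2 scale. Soat2, a sterol acyltransferase, was lower as well, but was well above background on 10 of the 12 arrays, so the size of its fall is not given. Of 17 fatty acid oxidation genes, 7 rose and 4 fell, among them Cpt1a, which rose by 0.98 (SE 0.12, limma adjusted p = 0.000124). The changes of genes outside the 32 are relative to the bulk, and the other scalings were not run for them.

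**Figure D4:**
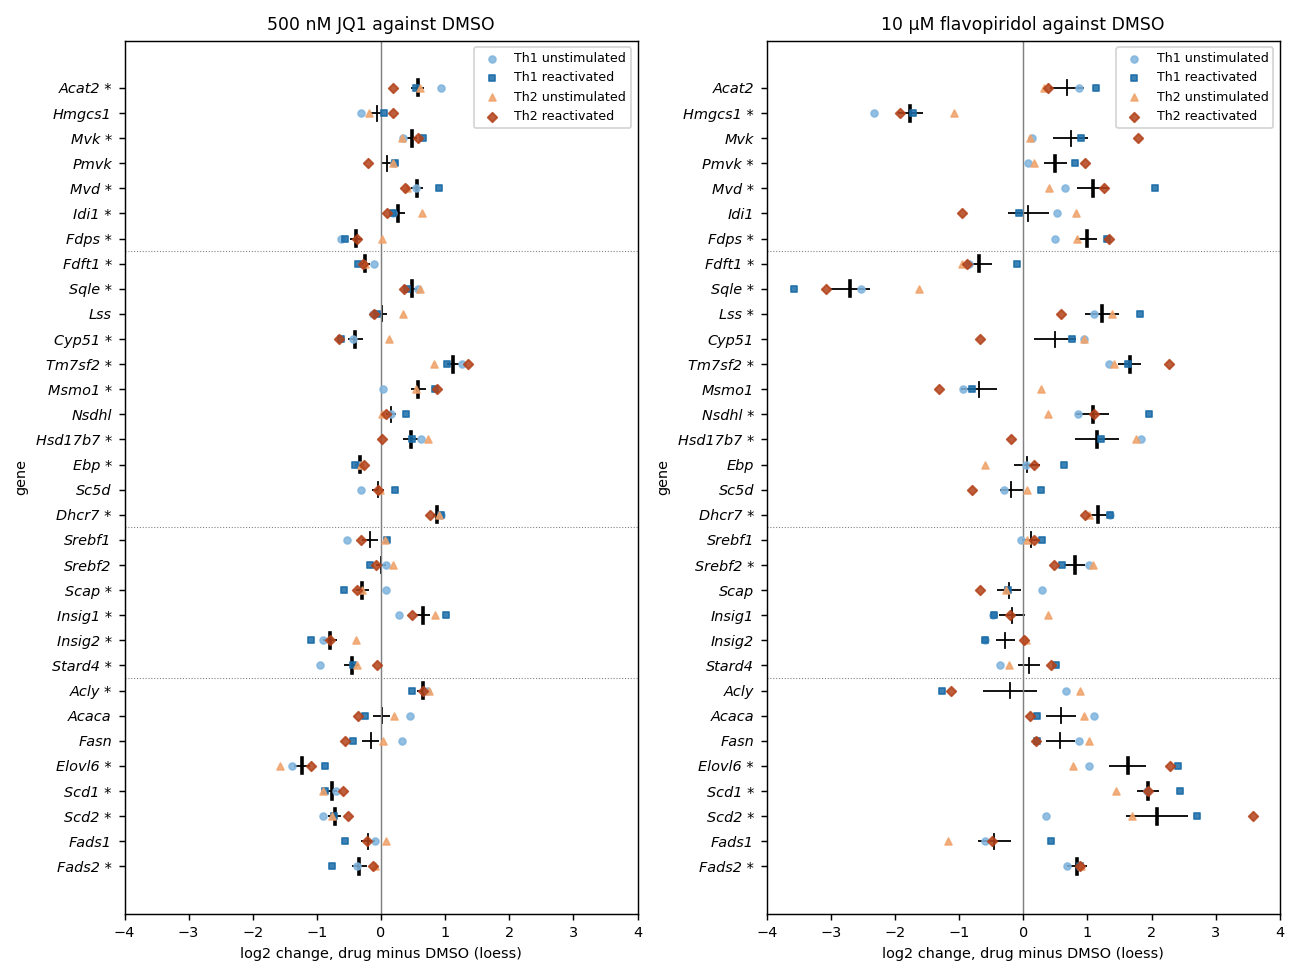
Log2 change against DMSO (horizontal axes) for the 32 genes (rows, by role) with 500 nM JQ1 (left) and 10 µM Flavopiridol (right), with a point for each of the 4 contexts and a bar with its SE from limma; stars mark an adjusted p below 0.05. Tm7sf2 and Elovl6 lie at the ends for JQ1, at 1.12 and -1.23, and Scd2 and Sqle for Flavopiridol, at 2.09 and -2.7.

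Flavopiridol at 10 µM lowered a few genes of the cholesterol pathway strongly while more members were called higher than lower. The same DMSO arrays served as controls as for JQ1. Of the 32 genes, 13 were higher and 3 lower, where 15.4% of all genes were higher and 33.5% lower by limma at an adjusted p below 0.05, and in total 50% of the members and 48.9% of all genes were called. The median over the members was 0.54 against -0.22 over all genes. The direction of the higher genes depends on the scaling. With arrays centred on the spike-in probes the median of all genes was -1.65, and 0 of the 32 were called higher and 23 lower. On that scaling 24 of all genes were called higher and 11307 lower, with 12455 tested in the main fit. Only Scd1 and Scd2 of the 13 stayed above 0 under all 4 scalings, while all 16 called genes kept their side of the all-gene median.

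Sqle and Hmgcs1 fell farthest. Sqle stood at 1.49, 2.22, 0.93 and 2.33 with DMSO in unstimulated and reactivated Th1 and unstimulated and reactivated Th2 cells, at -2.39, -2.38, -1.61 and -1.73 with 1 µM, and at -1.03, -1.35, -0.7 and -0.75 with 10 µM. For Sqle all 8 Flavopiridol arrays lay below the naive level and all 4 DMSO arrays above it, and the fall was 2.7 on the log2 scale at 10 µM (SE 0.31, limma adjusted p = 0.000208). Hmgcs1 stood at 1.44, 0.92, 0.19 and 0.93 with DMSO, at -0.99, -1.46, -1.75 and -1.7 with 1 µM and at -0.89, -0.8, -0.88 and -0.99 with 10 µM, a fall of 1.76 on the log2 scale at 10 µM (SE 0.19, limma adjusted p = 0.000158). Fdft1, squalene synthase, which makes the substrate of Sqle, fell by 0.69 on the log2 scale (SE 0.21, limma adjusted p = 0.0246). These 3 genes were lower and called under all 4 scalings, with Sqle between -4.64 and -2.7, Hmgcs1 between -3.63 and -1.76 and Fdft1 between -2.52 and -0.69.

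Both doses of Flavopiridol gave similar numbers of calls. At 1 µM, 13 genes were higher and 4 lower, where 51.7% of all genes were called in either direction, and Sqle stood at -3.77 (SE 0.31, limma adjusted p = 2.83e-05), Hmgcs1 at -2.34 (SE 0.19, limma adjusted p = 2.78e-05), Fdft1 at -1.35 (SE 0.21, limma adjusted p = 0.000806) and Msmo1, a methylsterol monooxygenase, at -1.49 (SE 0.28, limma adjusted p = 0.00219). The difference between 10 and 1 µM was not called for any of the 32 genes by limma, where 1.88% of all genes were, 1.5% higher and 0.377% lower. The largest was that of Sqle, 1.07 (SE 0.31, limma adjusted p = 0.169), and all 4 contexts had Sqle lower at 1 than at 10 µM.

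Both stearoyl-CoA desaturases were higher with Flavopiridol at 10 µM. Scd2 stood at 3.01, 0.66, 1.89 and -0.04 with DMSO and between 3.35 and 3.59 on all 8 Flavopiridol arrays, so the arrays with drug lay above all DMSO arrays and within 0.24 of each other. The change at 10 µM was 2.09 (SE 0.48, limma adjusted p = 0.00705), 1.53 and not called without the Th2 arrays, and its values by context ran from 0.35 in unstimulated Th1 cells to 3.58 in reactivated Th2 cells. Scd1 changed by 1.94 (SE 0.17, limma adjusted p = 6.35e-05), and by 1.81 with the Cy3 channel alone. On the spike-in centring the changes of Scd1 and Scd2 were 0.36 and 0.51 and were not called. Elovl6 gave 1.63 (SE 0.29, limma adjusted p = 0.00208) but -0.33 on that centring, Tm7sf2 1.66 (SE 0.18, limma adjusted p = 0.000165) but -0.25, and Lss 1.23 (SE 0.26, limma adjusted p = 0.00441) but -0.66.

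Among the regulators and the remaining steps, Srebf2 gave 0.8 (SE 0.17, limma adjusted p = 0.00469) and Dhcr7 1.17 (SE 0.14, limma adjusted p = 0.00022), both turned below 0 by the spike-in centring, at -1.14 and -0.73. Srebf1 gave 0.12 (SE 0.14, limma adjusted p = 0.502), Insig1 -0.18 (SE 0.2, adjusted p = 0.481) and Fasn 0.58 (SE 0.22, adjusted p = 0.0598), none of them called. Probes of Acaca disagreed, with 0.59 from the brightest and -0.16 and -0.15 from its other 2, and so did those of Stard4, with 0.09 and -1.27, and of Acly, with -0.2 from the brightest and 0.35 from the other. Outside the 32 genes the lists moved in both directions. Of 17 further SREBP targets 4 were higher and 3 lower, and of 13 genes of sterol export, storage and LXR response 2 were higher and 2 lower. Of 17 genes of fatty acid oxidation 2 were higher and 5 lower, with a median of -0.08 against -0.22 over all genes, and among them Cpt1a fell by 1.12 on the log2 scale (SE 0.28, limma adjusted p = 0.00947). Markers of other cells changed as well, with 2 of 3 T cell markers (median 0.56) and 1 of 2 CD8 markers (median 0.8) higher, 3 of 4 B cell markers lower (median -1.4), 1 of 3 myeloid markers tested higher and 1 lower, and the 1 erythroid marker tested higher by 1.05. Their part in the results was not tested.

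**Figure D5:**
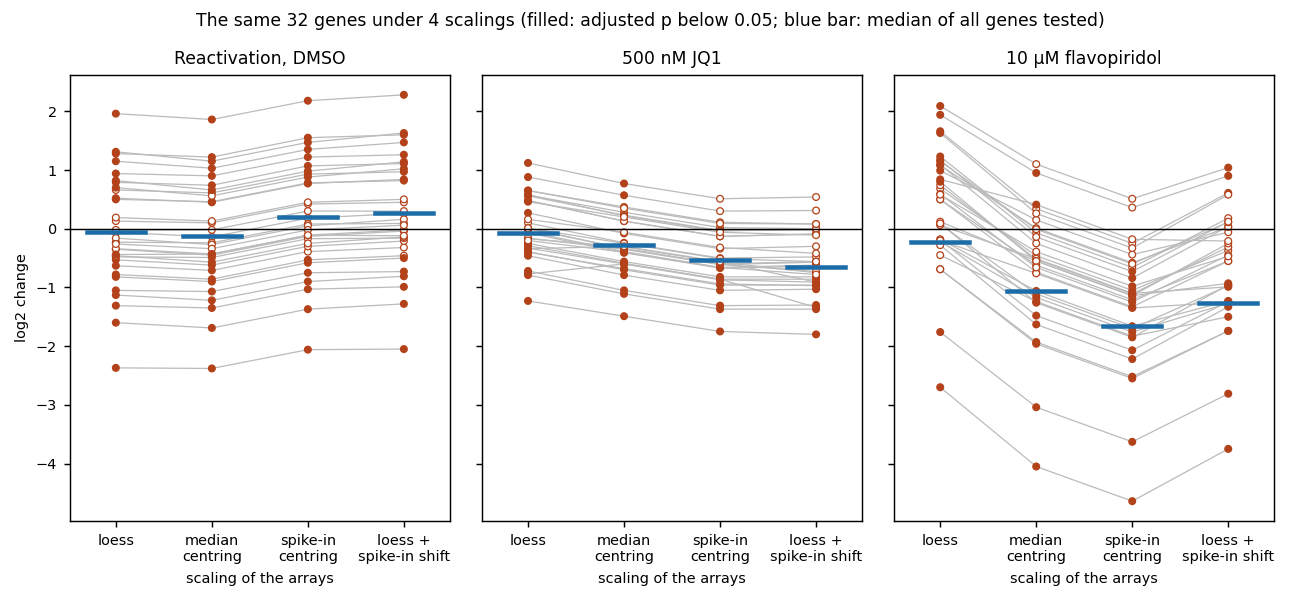
Log2 change (vertical axis) of the 32 genes, 1 line per gene, under 4 scalings of the arrays (horizontal axis) for reactivation, 500 nM JQ1 and 10 µM Flavopiridol, with filled points at an adjusted p below 0.05 and a blue bar at the median of all genes tested. For Flavopiridol that median moves from -0.22 with loess to -1.65 with spike-in centring, and 3 genes stay filled below 0 throughout.

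Th1 and Th2 cells differed in 7 of the 32 genes. Over 6 pairs matched by treatment and state, without Flavopiridol, 3 genes were higher and 4 lower in Th1 cells, where 28.6% of all genes were called, 14.5% higher and 14.1% lower. Scd2 was higher by 0.78 (SE 0.12, limma adjusted p = 0.00231) and Fdps by 0.61 (SE 0.11, limma adjusted p = 0.00488), each in 6 of 6 pairs, and Idi1 by 0.44 (SE 0.12, limma adjusted p = 0.0258). Dhcr7 was lower by -0.42 (SE 0.07, limma adjusted p = 0.00303), as were Fads1, Scap and Tm7sf2 by -0.37, -0.33 and -0.27. The calls of Idi1 and Tm7sf2 were lost without any of the 6 unstimulated arrays for Idi1 (0.36 to 0.51) and without any array but the reactivated DMSO ones for Tm7sf2 (-0.32 to -0.21), and 3 of the 7 calls were left without the DMSO arrays. On median centring 2 were higher and 5 lower, where 882 and 1834 of all genes were. On spike-in centring 1 was higher and 1 lower, where 598 and 939 of all genes were. The spike-in shift called 1 higher and 0 lower, and 458 and 646 of all genes. None of the 32 was called without the block of pairs. For some genes the values by pair differed between states, and that difference was not tested. Hmgcs1 was 1.25, 1.28 and 1.11 higher in Th1 cells in the unstimulated pairs, with DMSO, 50 nM and 500 nM JQ1, and stood at -0.01, -0.16 and -0.14 in the reactivated pairs, and it was not called over all 6 (0.56, SE 0.23, limma adjusted p = 0.111). Msmo1 stood at 1.24, 1.11 and 0.73 in the unstimulated and -0.11, -0.21 and -0.15 in the reactivated pairs, and Cyp51 at 0.95, 0.72 and 0.4 against -0.49, -0.42 and -0.47. Neither was called over all 6 pairs, at 0.43 (SE 0.22, limma adjusted p = 0.17) and 0.11 (SE 0.21, limma adjusted p = 0.727). Only the DMSO pairs lay on 1 slide, and in them Scd2 stood at 1.12 and 0.7, Fdps at 1.14 and 0.56 and Dhcr7 at -0.42 and -0.64. The B cell markers given above were higher on the Th2 arrays of this comparison as well (4 of 4 called). Of 2 CD8 markers 1, Cd8a, was called higher in Th1 cells. It was above background on 5 of 12 arrays, so the size of its difference is not given. The part of these markers was not tested.

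Between 24 and 6 hr in Th1 cells, over 4 pairs with DMSO or 500 nM JQ1, 3 genes were lower and 0 higher, where 5.29% of all genes were called, 2.91% lower and 2.38% higher. Pmvk changed by -0.71 (SE 0.11, limma adjusted p = 0.0221) and Scd2 by -0.63 (SE 0.13, limma adjusted p = 0.0347), each lower in 4 of 4 pairs. Scd1 was the third gene called, but it was well above background on 5 of these 8 arrays, so the size of its change is not given. Median centring called 1 gene, and both spike-in scalings and the scanner software's ratio called 0. Cy3 alone and the authors' ratios called 11, all lower. These settings called 526 and 456 of all genes higher and 784 and 995 lower. The call of Scd2 was lost on leaving out any of the 8 arrays (-0.7 to -0.49) and that of Pmvk on leaving out any but the reactivated DMSO arrays (-0.79 to -0.65), and the times lay on different slides, so time and slide cannot be told apart. Markers of cell types also differed between the times, with 2 of 3 T cell markers (median 0.76) and 1 of 2 CD8 markers (median 0.41) higher and 0 of 3 B cell markers called, and their part was not tested.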

How the data were processed

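Gene expression was measured on Agilent two-colour arrays, each with sample RNA in Cy3 and naive T cell RNA in Cy5. The deposited intensity values of both dyes came from Feature Extraction 10.7.1.1 per the file headers, with its log10 ratio of Cy5 over Cy3. A further log2 ratio table from the authors covers 34710 probes. These log10 and log2 values served only as alternatives.

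Median intensities of 59305 non-control spots were background-corrected (normexp, offset 50), loess-normalised within arrays and averaged per probe in limma 3.58.1 (R 4.3.3), and the sign was set to Cy3 over Cy5. Loess sets the bulk of genes near 0, so changes are relative to that bulk. Spots marked as outliers (234 to 331 per array) were left out. Of 55681 probes 26448 were named, 26425 by RefSeq accession and the rest by symbol or synonym. The number of arrays limits the precision. The scalings tried beside loess were median centring, centring on 10 spike-in probes, and a spike-in shift after loess.

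lmFit and eBayes were fitted over all genes well above background in Cy3 on at least 3 arrays, with pairs or contexts as blocks, and p-values were adjusted over all of them (Benjamini-Hochberg, 0.05). Analysis of simulated arrays preceded the fits. The genes, lists and tests were chosen with earlier results of these data known. Full values are given for the 8 largest called changes of genes measured on all arrays of a fit and for Hmgcs1, Sqle, Insig1, Srebf1, Srebf2, Fasn and Scd2, for up to 4 genes of each further list and for Abca1 and Abcg1, and some genes under that rule are not reported here. Other genes named were chosen after their values were seen. Alternatives included other backgrounds, filters, probe rules and blocks and leaving out each array. Figures were drawn with matplotlib 3.10.9.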

Additional observations from a re-analysis of the deposited data

Results flagged for a closer look

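The effect of 10 µM Flavopiridol differed between reactivated and unstimulated cells for 5 of the 32 genes, by a test of that difference in limma. Reactivated minus unstimulated, the difference was -1.97 for Acly, 1.45 for Elovl6, 2.12 for Scd2, 1.23 for Mvk and 0.76 for Stard4. Acly was the one gene called without each of the 12 arrays in turn. The effect of 500 nM JQ1 differed in the same way for Fasn, at -0.68, and Acaca, at -0.63, but each call was lost in 8 of 12 fits without 1 array, with values from -0.82 to -0.55 and from -0.73 to -0.52, and neither was called with Cy3 alone or with the authors' ratios. In these tests 15.8% and 10.1% of all genes were called.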

How the results depend on the processing

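Precision is limited by having 1 array per condition, and the genes with the dimmest probes (Scd1, Fads2 and Srebf1) were near background on some arrays. Results for named genes kept their side of the threshold in 3041 recomputations, gained a call in 52, lost it in 241 and reversed in 35. A reversal is a change of sign with a call in the main fit or the recomputation. Changes of sign without any call are among the 3041. Unless a construction is named, the cause was not tested. The labels give no replicate numbers, so no block by replicate number was run, and the fits had matched conditions as blocks.

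With each array left out in turn, the number of the 32 genes called ran from 15 to 21 for reactivation, 13 to 18 for 10 µM Flavopiridol, 17 to 21 for 500 nM JQ1, 0 to 1 for the Flavopiridol doses, 10 to 14 for the JQ1 doses, 1 to 9 for the Flavopiridol effect by state, 0 to 3 for the JQ1 effect by state, 0 for both drug effects by cell type, 5 to 8 for Th1 against Th2, 0 to 2 for 24 against 6 hr and 13 to 22 for the naive comparison. The lowest count came without the unstimulated Th1 DMSO array at 24 hr for reactivation and without that at 6 hr for the naive comparison, and the 1 by state for Flavopiridol without the unstimulated Th2 array at 10 µM. Requiring a change of at least 2-fold in each pair, with no test, left 4 genes for reactivation, 4 for 10 µM Flavopiridol and 3 for the naive comparison. It left 0 for 500 nM JQ1, the JQ1 doses, Th1 against Th2 and time. All genes were not counted under this rule.

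Centring on spike-ins called 13 genes for 500 nM JQ1, 1 for the Flavopiridol effect by state, 28 for the JQ1 effect by state, 2 for the Flavopiridol effect by cell type, 2 for Th1 against Th2 and 0 for time, and the spike-in shift after loess called 11, 0, 28, 7, 1 and 0, and 7 for the JQ1 doses. Median centring called 1 gene for each effect by state and 1 for time. The scanner software's log ratio called 1 for the Flavopiridol doses, 2 and 0 for the Flavopiridol and JQ1 effects by state and 0 for time, the ratios that the authors computed called 8, 1 and 11 for the last 3, and intensities without background correction 1 for the Flavopiridol doses and 3 and 1 by state. Without the block 4 genes were called for 500 nM JQ1, 0 for the JQ1 doses, 3 and 0 by state and 0 for Th1 against Th2 and for time. The slide as a random block called 16 for the Flavopiridol effect by state, and 2274 of all genes higher and 1648 lower. Cy3 alone called 11 for Th1 against Th2, where 1990 and 1775 of all genes were called, and 11 for time. The mean of all probes called 1 for the JQ1 effect by state, and no filter 1 for time. JQ1 at 50 nM in place of 500 nM called 0. Without the arrays paired with the Th2 DMSO arrays, 3 genes were called for the JQ1 doses, where 222 of all genes were higher and 573 lower. For Th1 against Th2 3 were called, where 916 and 750 of all genes were. With the Flavopiridol arrays added 14 were, where 2239 and 2435 of all genes were.

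With 10 µM Flavopiridol, median centring turned Lss (-0.07), Dhcr7 (-0.14), Srebf1 (-0.55) and Srebf2 (-0.55) below 0. Spike-in centring turned Tm7sf2 (-0.25), Elovl6 (-0.33), Lss (-0.66), Dhcr7 (-0.73), Srebf1 (-1.14), Srebf2 (-1.14) and Fasn (-0.98), and the spike-in shift Srebf1 (-0.93) and Srebf2 (-0.25). With 500 nM JQ1, spike-in centring turned Msmo1 (-0.04) and Sqle (-0.13), and the shift Sqle (-0.09). For the JQ1 doses, centring and shift turned Dhcr7 (-0.03 and -0.05), Insig1 (-0.06 and -0.09), Mvd (-0.1 and -0.1), Msmo1 (-0.23 and -0.2) and Sqle (-0.25 and -0.23). For the JQ1 effect by state they turned Insig1 (-0.85 and -1.06), Srebf1 (-0.76 and -1.12) and Scd2 (-0.96 and -1.04), and centring turned Hmgcs1 (-0.79). Turns of genes called neither in the main fit nor in the alternative are not listed. Fads1 stood at 0.02 for Th1 against Th2 with the Flavopiridol arrays, and Srebf1 at -0.36 against naive cells on median centring. For the naive comparison Cy3 alone and both spike-in scalings were not run, nor were the effects by state without the Th2 arrays, where no residual degrees of freedom remain.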
